A study of Mus musculus with 12 samples.

Results

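RNA levels of 42 genes of the lysosome were examined in stromal vascular fraction cells taken from the fat of mice, which are the precursor, vessel and immune cells without the mature adipocytes. The genes were given by symbol: 9 cathepsins, 8 glycosidases, 5 lipid and protein hydrolases, 4 activator and luminal proteins, 5 membrane proteins, 8 genes of the vacuolar proton pump (V-ATPase) and 3 transcription factors. All 42 symbols were found among the 24422 counted features, and all 42 passed the low-count filter that left 16713 features for testing.

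The lysosome is the acidic compartment in which cells break down protein, lipid, glycan and nucleic acid taken up from outside or delivered by autophagy. The V-ATPase pumps protons into it, and the low pH activates the cathepsins, which are proteases, and the hydrolases of glycans and lipids. In adipose tissue, macrophages that take up lipid from adipocytes are known for a high content of lysosomal acid lipase and cathepsins. TFEB, TFE3 and MITF are transcription factors that bind a motif with the core letters CACGTG in the promoters of many lysosomal genes.

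There were 4 groups of 3 libraries. SD mCherry (replicates 1, 2 and 3) came from p21+/mcherry mice on the standard diet, and HFD mCherry (replicates 15, 17 and 20) from the same genotype on the high-fat diet. HFD Tert (replicates 25, 26 and 27) came from p21+/mcherry-Tert mice and HFD TertCi (replicates 30, 31 and 33) from p21+/mcherry-TertCi mice, both on the high-fat diet. Tert is the catalytic subunit of telomerase, and TertCi is its catalytically inactive form. The mCherry, Tert or TertCi cassette sits at 1 p21 (Cdkn1a) allele and is under that gene's promoter, so every group, controls included, carries 1 modified p21 allele. Expression of the knock-in is thus tied to cells that use the p21 promoter, and the study asked what it does to the transcriptome of the fraction. The series' design text gives the high-fat diet control as p21+/-, while the labels give p21+/mcherry; the labels were followed. Age, sex, fat depot and batch are not in the labels, and nothing there says that the 3 libraries of a group came from separate mice, so p-values measure the spread between these libraries.

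The promoters of the genes show where the TFEB family motif occurs, without saying whether it is used. RefSeq windows of 300 bases (250 before to 50 after the start, assembly GRCm38.p6) were found for 35 of the 42 genes, some with more than 1 start. Searched on both strands, on which these letters read alike, TCACGTGA was in 6 of the 44 windows (13.6%), those of Atp6v0d1, Atp6v1a, Ctsa, Ctsd, Gla and Mcoln1, against 320 of 32851 windows of all genes (0.974%). The shorter core CACGTG, which the longer motif contains, was in 10 windows (22.7%) against 2349 of all windows (7.15%); the further 4 genes were Ctsl, Gaa, Glb1 and Lamp1. Stretches before the start are shown for a cathepsin, a glycosidase, a channel, a V-ATPase subunit and a membrane protein that hold the core, and for Ctsk and Gusb, which had the highest fold change of their class on the high-fat diet and no match in their windows. Capitals mark the core CACGTG, and each stretch is written 5′ to 3′ along the gene's strand, from the RefSeq windows.
Ctsa, chr2:164833736-164833772, plus strand: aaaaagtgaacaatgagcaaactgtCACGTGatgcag
Ctsd, chr7:142387895-142387950, minus strand: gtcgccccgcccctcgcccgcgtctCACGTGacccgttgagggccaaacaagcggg
Gla, chrX:134601169-134601255, minus strand: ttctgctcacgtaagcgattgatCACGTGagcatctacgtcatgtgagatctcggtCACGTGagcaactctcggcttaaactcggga
Mcoln1, chr8:3500423-3500504, plus strand: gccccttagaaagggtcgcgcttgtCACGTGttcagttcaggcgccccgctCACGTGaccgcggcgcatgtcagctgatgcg
Atp6v1a, chr16:44139360-44139415, minus strand: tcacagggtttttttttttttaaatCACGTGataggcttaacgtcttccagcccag
Lamp1, chr8:13159075-13159160, plus strand: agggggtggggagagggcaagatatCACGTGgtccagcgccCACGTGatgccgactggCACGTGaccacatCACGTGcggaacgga
Ctsk, chr3:95499110-95499209, plus strand: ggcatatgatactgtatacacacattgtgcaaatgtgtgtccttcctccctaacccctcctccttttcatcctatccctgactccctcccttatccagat
Gusb, chr5:130003050-130003149, minus strand: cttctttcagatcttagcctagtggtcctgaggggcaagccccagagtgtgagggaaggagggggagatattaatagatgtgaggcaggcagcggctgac
The Lamp1 stretch holds 4 copies of the core, and the stretches of Gla and Mcoln1 hold 2 each. The Ctsd window holds a further copy upstream of the stretch shown, and the Ctsa window holds a further copy after the start.

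Each library had between 16430330 and 19486965 counts. Reads of Tert numbered 78, 44 and 8 in SD mCherry, 30, 17 and 27 in HFD mCherry, 154, 131 and 282 in HFD Tert and 187, 229 and 304 in HFD TertCi, and the added feature mCherry_Tert was at 0 in the 6 mCherry libraries and at 33 to 86 reads in the 6 others. These reads separated the 6 knock-in libraries from the 6 mCherry libraries as labelled; they do not tell Tert from TertCi, so those 2 labels were not checked. The libraries differed in make-up in a way that the groups do not explain. Crisp1, a secreted protein of the epididymis, was at 641 to 14780 CPM (reads scaled to a common library total) in 8 libraries and at 0 to 0.529 CPM in 4, which were 1 library of each group: HFD TertCi 31, HFD Tert 27, HFD mCherry 20 and SD mCherry 2. Results are therefore also given for these 4 libraries by themselves and with the presence of Crisp1 as a term in the model. These 4 were not matched in the summed epididymis and epithelium markers. SD mCherry 2 was at 3996 CPM, above HFD mCherry 17, which had Crisp1, at 2049 CPM. HFD mCherry 20, HFD Tert 27 and HFD TertCi 31 were at 240, 57.2 and 361 CPM. The adipocyte hormone Adipoq was at 0.552 to 7.85 CPM, and the labelled stromal cells showed in Col3a1, a collagen of adipose progenitors, at 245 to 8975 CPM.

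The 42 genes took a larger part of the RNA on the high-fat diet in the mCherry control. Their summed level was 7672, 8073 and 8612 CPM in SD mCherry, 12637, 25912 and 24151 CPM in HFD mCherry, 8496, 8629 and 13609 CPM in HFD Tert and 8821, 12318 and 9237 CPM in HFD TertCi. HFD mCherry replicates 17 and 20 were the highest, and HFD mCherry 15 lay between them and the SD mCherry libraries, near HFD Tert 27 and HFD TertCi 31. The cathepsins alone summed to 2086, 2505 and 2665 CPM in SD mCherry and 4361, 11634 and 10881 CPM in HFD mCherry, and the V-ATPase genes to 748, 961 and 977 CPM and 1184, 2106 and 1970 CPM. In a bulk sample, more RNA of these genes per cell and more cells that contain it cannot be told apart. The 12 macrophage markers were likewise highest in HFD mCherry 17 and 20: their sum was 1267, 1353 and 1173 CPM in SD mCherry, 2624, 6534 and 5318 CPM in HFD mCherry, 1211, 977 and 2652 CPM in HFD Tert and 1254, 1888 and 1487 CPM in HFD TertCi. The 12 adipose progenitor markers were also highest in HFD mCherry 17 and 20, with sums of 24276 and 24724 CPM. The part of macrophage or progenitor content in the levels of the lysosomal genes was not tested.

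**Figure D1:**
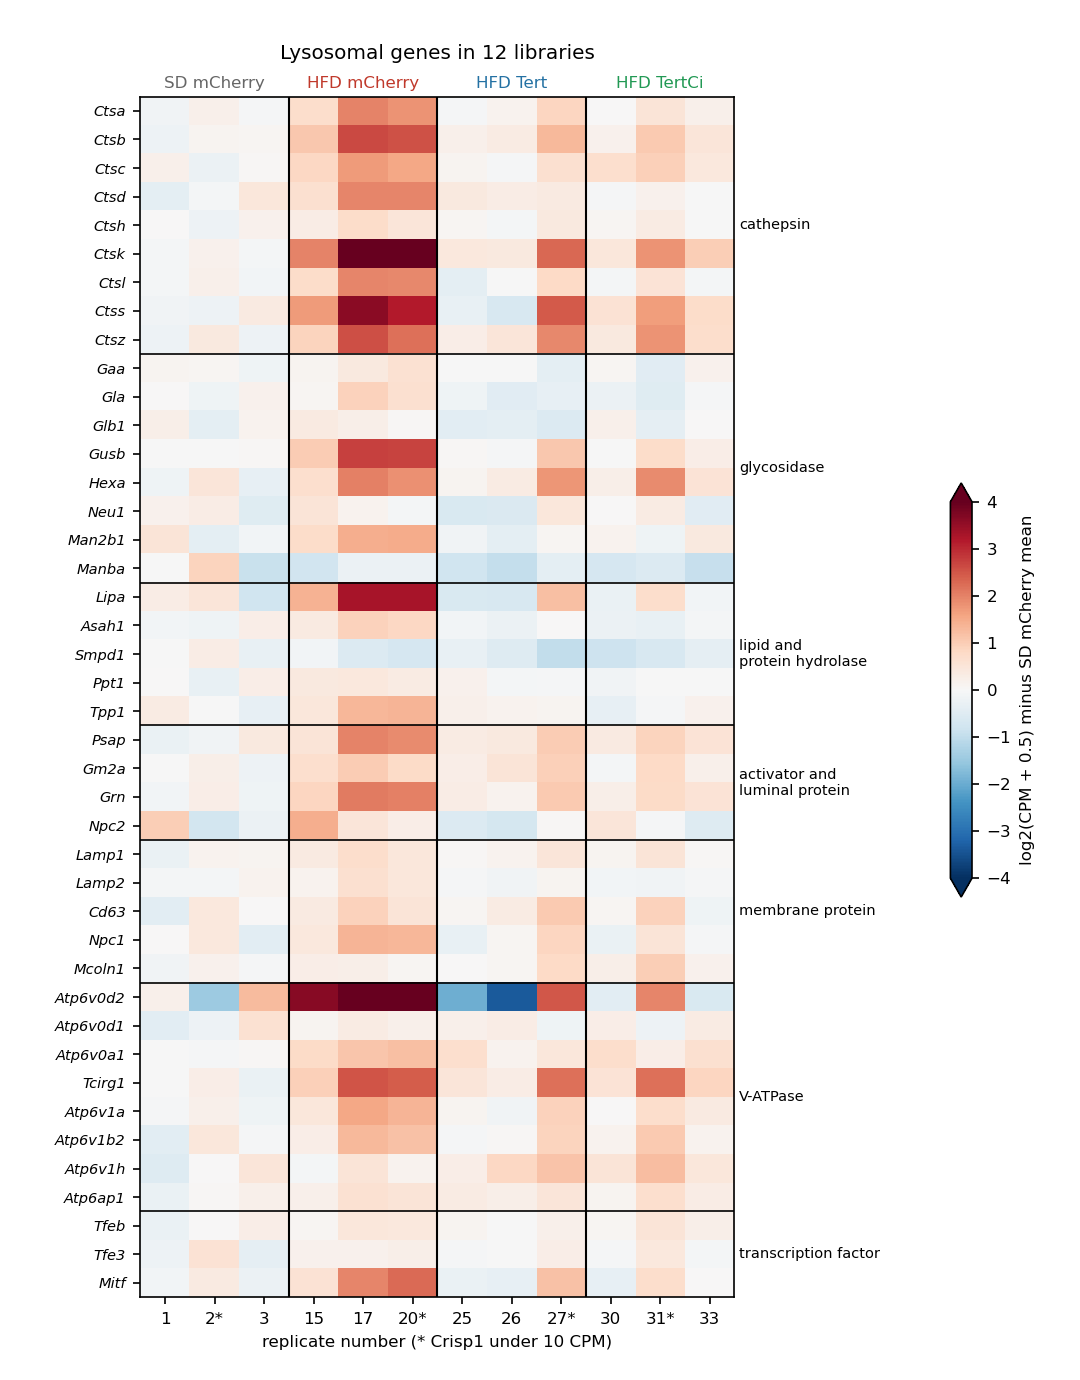
Difference of each of the 42 genes (rows, by class) in each of the 12 libraries (columns) from the SD mCherry mean, on the log2(CPM + 0.5) scale; colours end at 4 in either direction, and a star marks the 4 libraries with Crisp1 under 10 CPM. The columns of HFD mCherry 17 and 20 are the reddest, with Ctsk, Lipa, Ctss and Atp6v0d2 the darkest rows.

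**Figure D2:**
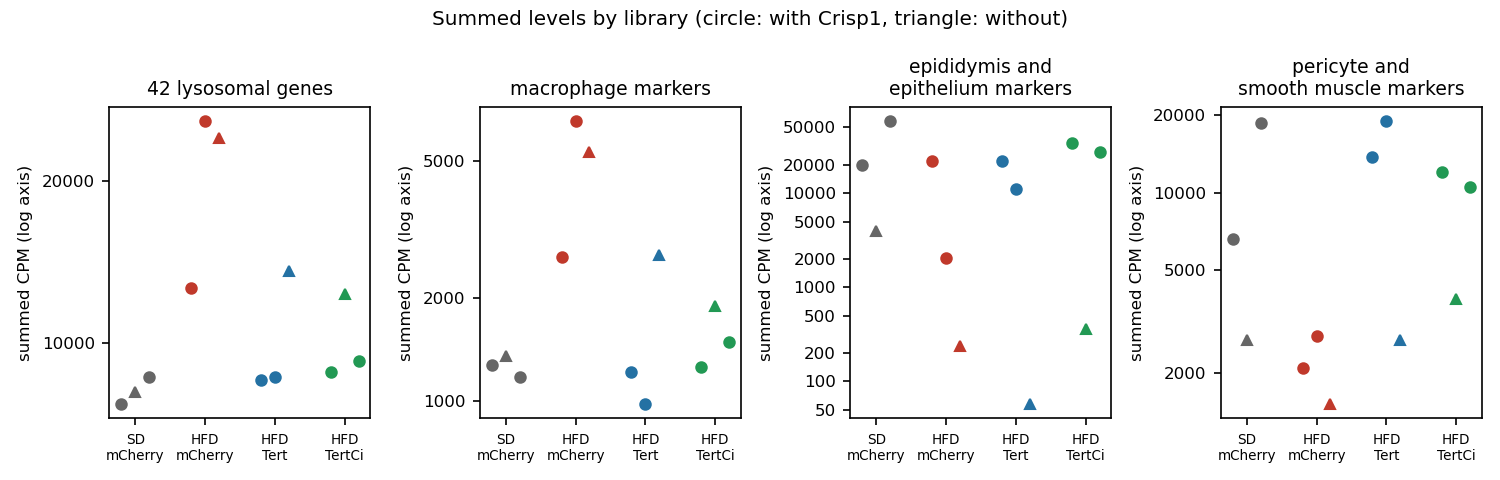
Summed CPM (log axis) of the 42 genes and of 3 marker lists in each library, by group; triangles are the 4 libraries with Crisp1 under 10 CPM. The lysosomal genes and the macrophage markers are highest in HFD mCherry 17 and 20, whereas the epididymis and smooth muscle markers split the libraries within groups.

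In HFD mCherry against SD mCherry, 40 of the 42 genes had a higher level and 2, Manba and Smpd1, a lower one, with a median log2 fold change of 0.99 against -0.08 over all 16713 tested genes, of which 45.9% were higher. Scaled by library size only, which moves the median of all genes by -0.20, 35 were higher and 7 lower, with Neu1, Mcoln1, Atp6v0d1, Atp6v1h and Tfe3 turning. All 3 HFD mCherry libraries lay above all 3 SD mCherry libraries for 28 of the 42 genes (13.9% of all tested genes), and for 0 genes below. By edgeR's quasi-likelihood test with Benjamini-Hochberg adjustment over all tested genes, 0 of the 42 passed at an adjusted p under 0.05, where 0.0479% of all tested genes did; the lowest adjusted p among the 42 was 0.0659. At an unadjusted p under 0.05, 27 of the 42 were higher and 0 lower (14.1% and 10% of all tested genes). DESeq2 called 20 of the 42 higher and 0 lower (6.17% and 3.51% of all genes it tested). The edgeR calls depended on single libraries: without HFD mCherry replicate 15, 21 of the 42 were called higher (8.76% of all tested genes), 19 of them among the 20 of DESeq2. Without HFD Tert replicate 27, which enters this comparison only through the shared fit, 13 were called higher (3.33%), all among those 20. With any other library left out, 0 of the 42 were called. Without HFD mCherry 17 or 20, 0 of all tested genes were called, and the lowest adjusted p among the 42 was 0.261 in the edgeR test. With the mean level of epididymis and epithelium markers as a covariate, 21 were called higher (6.75%). With the presence of Crisp1 as a term, 22 were called higher (6.6% of all tested genes), 18 of them shared with DESeq2. In the libraries without Crisp1, 1 of each group and so with no test, 37 of the 42 genes were higher in the HFD mCherry library than in the SD mCherry library, with a median log2 ratio of 0.99. The share of all tested genes was not counted for this pair.

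The cathepsins had the highest median fold change of the 7 classes on the high-fat diet. All 9 were higher on the high-fat diet with no overlap between the libraries (13.9% of all tested genes), with log2 fold changes of 0.51 to 3.64 and a median of 1.63. DESeq2 called 8 of the 9 higher, all but Ctsh (6.17% of all genes it tested). Ctsk, the collagen-degrading cathepsin best known from osteoclasts (chr3:95499256-95509362), was at 37.1, 43.5 and 36.6 CPM in SD mCherry and at 156, 658 and 645 CPM in HFD mCherry. It was at 52.6, 51.7 and 193 CPM in HFD Tert and 53.6, 137 and 77.3 CPM in HFD TertCi. Every HFD mCherry library was above every SD mCherry library, but HFD mCherry 15 was below HFD Tert 27. The ratio of the group means was 12.4, and the log2 fold changes were 3.64 ± 0.69 (SE) for the diet, -2.30 ± 0.65 for Tert and -2.45 ± 0.65 for TertCi, with edgeR adjusted p of 0.0659, 0.195 and 0.195.

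Ctss, a cathepsin of antigen-presenting cells that also cuts the invariant chain of MHC class II, was at 38.3, 36.3 and 53.9 CPM in SD mCherry and 138, 525 and 385 CPM in HFD mCherry. In HFD Tert it was at 34.3, 27 and 234 CPM, with replicate 27 far above the other 2 and above HFD mCherry 15, and in HFD TertCi at 63.9, 134 and 69.8 CPM, with all 3 below HFD mCherry. Its log2 fold changes were 3.03 ± 0.81 for the diet, -1.83 ± 0.78 for Tert and -1.97 ± 0.78 for TertCi. Ctsd, the aspartic protease, had the highest level per kilobase of transcript among the cathepsins (mean of 12 libraries 463 CPM per kb). Its level was 519.6, 637 and 926 CPM in SD mCherry, 1060, 2630 and 2618 CPM in HFD mCherry, 876, 829 and 868 CPM in HFD Tert and 652, 764 and 672 CPM in HFD TertCi. Unlike Ctsk and Ctss, Ctsd was nearly level across the 3 HFD Tert libraries, replicate 27 included, and both knock-in groups lay wholly below HFD mCherry. Ctsb, a cysteine protease of most cells whose exons overlap those of Fdft1, was the second highest cathepsin per kilobase and was at 613, 769 and 755 CPM in SD mCherry, 1510, 4413 and 4116 CPM in HFD mCherry, 817, 889.7 and 1759 CPM in HFD Tert and 793, 1477 and 998 CPM in HFD TertCi. It lay wholly above SD mCherry and HFD TertCi in HFD mCherry, with HFD Tert 27 above HFD mCherry 15. Apart from Ctsk, Ctss and Ctsd, the cathepsins, which were Ctsa, Ctsb, Ctsc, Ctsh, Ctsl and Ctsz, had diet log2 fold changes of 0.51 (Ctsh) to 2.23 (Ctsb).

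**Figure D3:**
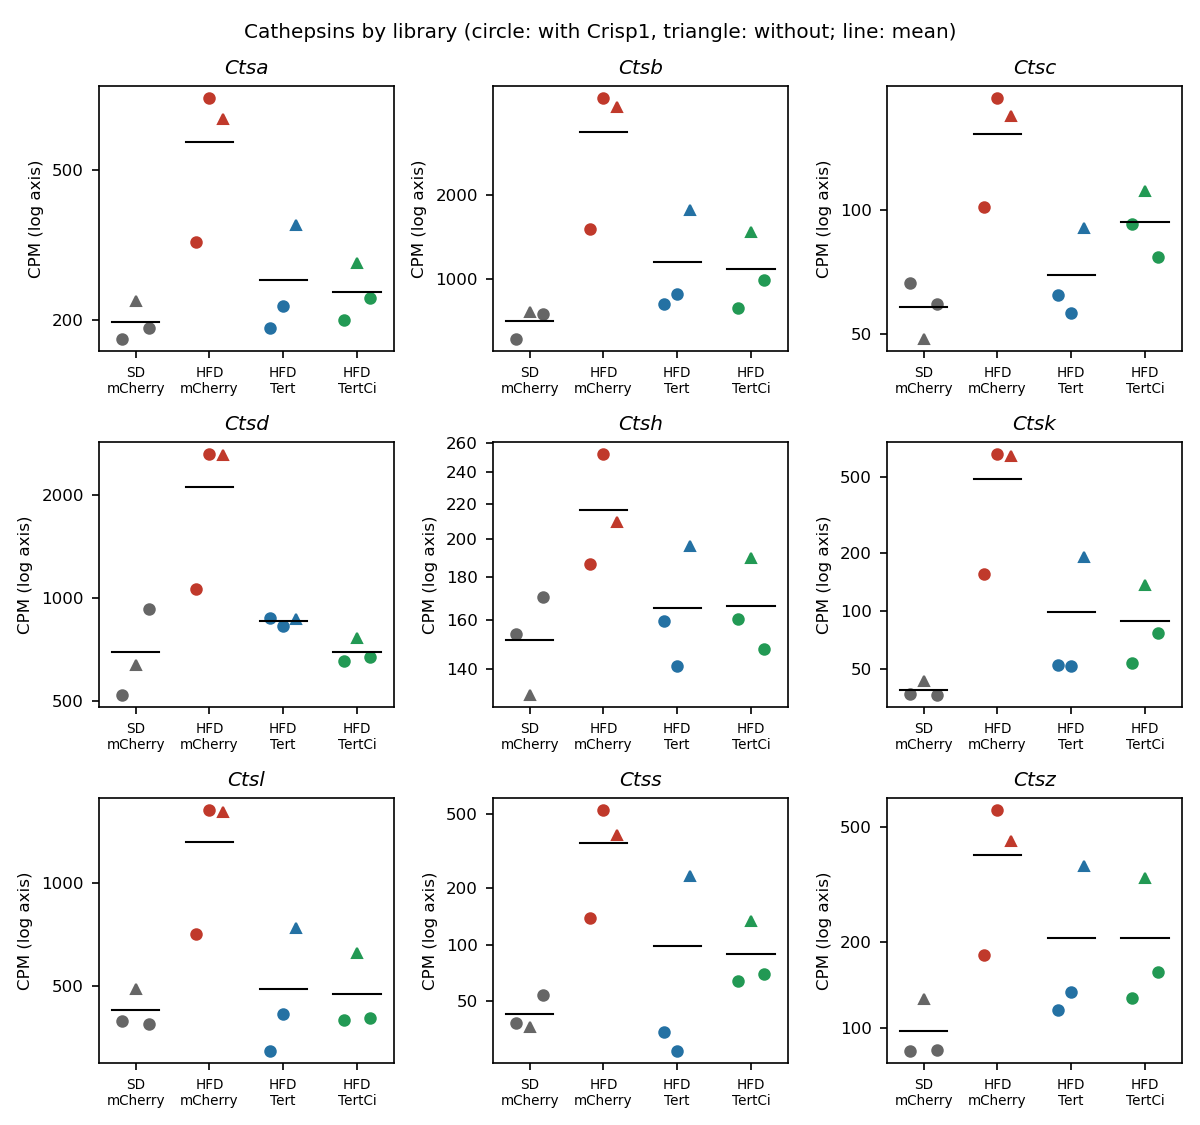
Level of each of the 9 cathepsins (CPM, log axis) in the 12 libraries by group; lines are group means, triangles the 4 libraries with Crisp1 under 10 CPM. The 3 HFD mCherry libraries lie above the 3 SD mCherry libraries in all 9 panels, and in most panels the triangle is the highest point of HFD Tert and HFD TertCi.

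The diet log2 fold changes of the glycosidases ranged from -0.57 (Manba) to 2.35 (Gusb). Of the 8, 7 were higher on the high-fat diet (6 when scaled by library size only), with a median log2 fold change of 0.48. The libraries did not overlap for 4 (13.9% of all tested genes), and DESeq2 called Gusb and Man2b1 higher (6.17% of all genes it tested). Gusb, beta-glucuronidase, which removes glucuronic acid from glycosaminoglycans (chr5:129989011-130003049), was even in SD mCherry at 32.3, 31.9 and 33.3 CPM and was at 66.7, 219 and 212 CPM in HFD mCherry. It was at 33.8, 31.3 and 69.5 CPM in HFD Tert and 32.2, 54.9 and 39.4 CPM in HFD TertCi. In HFD mCherry, replicates 17 and 20 were about alike and replicate 15 was much lower, next to HFD Tert 27. The log2 fold changes were 2.35 ± 0.46 for the diet, -1.89 ± 0.45 for Tert and -1.98 ± 0.45 for TertCi.

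Hexa, the alpha subunit of beta-hexosaminidase, which degrades GM2 ganglioside, had the highest level per kilobase of its class (mean 91.5 CPM per kb), although its exons overlap those of Tmem202. It was at 79.8, 125 and 71.4 CPM in SD mCherry, 141, 366 and 318 CPM in HFD mCherry, 96.6, 113 and 308 CPM in HFD Tert and 106, 335 and 130.1 CPM in HFD TertCi. HFD Tert 27 and HFD TertCi 31 were near HFD mCherry 17 and 20, while the other knock-in libraries were all below HFD mCherry 15. Manba, beta-mannosidase, had the lowest diet log2 fold change of the 42, -0.57 ± 0.38. It was at 79.4, 149 and 42.3 CPM in SD mCherry and 46.8, 67.5 and 67.5 CPM in HFD mCherry, with the HFD mCherry libraries within the range of the SD mCherry ones, and its fold change was -0.01 without SD mCherry replicate 2. It was at 45.5, 40.5 and 59.9 CPM in HFD Tert and 50.04, 54.1 and 41.3 CPM in HFD TertCi. Man2b1, an alpha-mannosidase, was at 166, 88.3 and 109 CPM in SD mCherry, 194, 319 and 325 CPM in HFD mCherry, 106, 89.1 and 123 CPM in HFD Tert and 129, 104 and 152 CPM in HFD TertCi. The HFD mCherry libraries were above all 9 others, and its adjusted p of 0.168 for Tert (-1.40 ± 0.29) was the lowest of the 42 in that comparison. Apart from Gusb, Hexa and Manba, the 5 glycosidases Gaa, Gla, Glb1, Neu1 and Man2b1 had diet log2 fold changes of 0.17 (Neu1) to 1.21 (Man2b1).

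Among the lipid and protein hydrolases, Lipa stood out. Lipa, lysosomal acid lipase, which frees cholesterol and fatty acids from lipid taken up by the cell (chr19:34492318-34527474), was at 58.1, 65.7 and 27.1 CPM in SD mCherry and 124, 465 and 462 CPM in HFD mCherry, a ratio of means of 6.97. It was at 30.8, 29.7 and 108 CPM in HFD Tert and 38.6, 76.9 and 43.5 CPM in HFD TertCi. HFD mCherry lay wholly above each of the other 3 groups, by a narrow gap between HFD mCherry 15 and HFD Tert 27. The log2 fold changes were 2.80 ± 0.66 for the diet, -2.64 ± 0.66 for Tert and -2.72 ± 0.66 for TertCi, with DESeq2 adjusted p of 0.00062, 0.00379 and 0.00293 and edgeR adjusted p of 0.0727, 0.187 and 0.183.

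Asah1, acid ceramidase, had the highest level per kilobase of the class (mean 34.9 CPM per kb) and varied little within groups. It was at 99, 94.6 and 128 CPM in SD mCherry, 137, 199.6 and 188 CPM in HFD mCherry, 98.4, 90.1 and 107 CPM in HFD Tert and 90.5, 86.7 and 101 CPM in HFD TertCi. The HFD mCherry libraries were above all 9 others. Its log2 fold changes were 0.71 ± 0.20, -0.83 ± 0.20 and -0.91 ± 0.20 for the diet, Tert and TertCi, and its edgeR adjusted p of 0.155 in the TertCi comparison was the lowest of the 42. Smpd1, acid sphingomyelinase, which makes the ceramide that Asah1 cleaves, was at 48.7, 60.1 and 39.8 CPM in SD mCherry and 45.7, 33.4 and 30.4 CPM in HFD mCherry, with a diet log2 fold change of -0.44 ± 0.25 and overlap between the groups. It was at 39.6, 34.3 and 24.4 CPM in HFD Tert and 27.3, 30.8 and 37.8 CPM in HFD TertCi. Ppt1 and Tpp1, a thioesterase and a peptidase, had diet log2 fold changes of 0.36 and 1.08, both with no overlap, and Tpp1 was called by DESeq2.

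The activator and luminal proteins were all higher on the high-fat diet, with a median log2 fold change of 1.19. Psap, the precursor of the saposins that present sphingolipids to their hydrolases (chr10:60277627-60302597), had the highest level per kilobase of the 42 genes, a mean of 939 CPM per kb, ahead of Ctsd. It was at 1218, 1324 and 1904 CPM in SD mCherry, 2084, 5696 and 5384 CPM in HFD mCherry, 1813, 1907 and 2947 CPM in HFD Tert and 1852, 2669 and 2107 CPM in HFD TertCi. All 3 HFD mCherry libraries were above SD mCherry, but HFD mCherry 15 was within the range of both knock-in groups. The log2 fold changes were 1.57 ± 0.40 for the diet, -0.98 ± 0.40 for Tert and -0.99 ± 0.40 for TertCi. Grn, progranulin, was at 195, 255 and 188 CPM in SD mCherry, 379, 893 and 851 CPM in HFD mCherry, 259.7, 231 and 437 CPM in HFD Tert and 248, 359.8 and 307 CPM in HFD TertCi. It had a diet log2 fold change of 1.73 ± 0.36 and was called by DESeq2 in the diet, Tert and TertCi comparisons. Gm2a, the GM2 activator, was at 0.82 with no overlap. Npc2, a carrier of cholesterol in the lumen, was at 0.64 with overlap, since SD mCherry 1 and HFD mCherry 15 were its highest libraries.

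The membrane proteins had a median diet log2 fold change of 0.51. All 5 were higher on the high-fat diet (4 when scaled by library size only, without Mcoln1), with log2 fold changes of 0.20 to 1.07. DESeq2 called 0 of them (6.17% of all genes it tested were called higher). Lamp1, a main glycoprotein of the lysosomal membrane, had the highest level per kilobase of the class (mean 285 CPM per kb), with exons that overlap those of Grtp1. It was at 531, 701 and 685 CPM in SD mCherry, 819, 1036 and 877 CPM in HFD mCherry, 660.1, 702 and 882 CPM in HFD Tert and 686, 907 and 654 CPM in HFD TertCi. HFD mCherry was above SD mCherry in all 3 libraries and overlapped both knock-in groups, with log2 fold changes of 0.51 ± 0.23, -0.28 ± 0.23 and -0.28 ± 0.23 for the diet, Tert and TertCi.

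Cd63, a tetraspanin of late endosomes and lysosomes, was at 77.6, 139 and 106 CPM in SD mCherry, 135, 198 and 149 CPM in HFD mCherry, 110.3, 132 and 215 CPM in HFD Tert and 109.6, 199 and 93.4 CPM in HFD TertCi, and every pair of groups overlapped. Mcoln1, the lysosomal calcium channel TRPML1, was at 28, 35 and 29.7 CPM in SD mCherry, 37.3, 36 and 32.7 CPM in HFD mCherry, 31, 32.7 and 53.6 CPM in HFD Tert and 36, 61.1 and 34.8 CPM in HFD TertCi. Only HFD Tert 27 and HFD TertCi 31 stood above the other 10 libraries. The Tert and TertCi log2 fold changes of Mcoln1 were 0.15 ± 0.27 and 0.31 ± 0.27, 1 of 2 genes with a value above 0 in both; on the 8 libraries with Crisp1 they were -0.20 and -0.05. Npc1, the membrane partner of Npc2 in cholesterol export, and Lamp2 had diet log2 fold changes of 1.07 and 0.42.

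The V-ATPase genes ranged from the highest fold change of the 42 to values near 0. All 8 were higher on the high-fat diet (6 when scaled by library size only), with a median log2 fold change of 0.99. The libraries did not overlap for 5 (13.9% of all tested genes). DESeq2 called 4 higher, Atp6v0d2, Atp6v0a1, Tcirg1 and Atp6v1a (6.17% of all genes it tested). Atp6v0d2, the d2 subunit of the membrane sector, known from osteoclasts and macrophages (chr4:19876841-19922605), was at 6.57, 1.75 and 14.3 CPM in SD mCherry and 76.2, 149 and 171 CPM in HFD mCherry. It was at 1.11, 0.107 and 34.1 CPM in HFD Tert and 4.13, 23.1 and 3.56 CPM in HFD TertCi. All 3 HFD mCherry libraries were above all 9 others, and HFD Tert 27 and HFD TertCi 31 were again the highest of their groups. Its log2 fold changes had wide errors, 4.14 ± 1.59 for the diet, -3.49 ± 1.54 for Tert and -3.69 ± 1.56 for TertCi, with edgeR adjusted p of 0.163, 0.298 and 0.311. Without HFD Tert replicate 27 the Tert value was -7.77.

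Its paralogue Atp6v0d1, the d1 subunit found in most cells, was at 91.4, 106 and 189 CPM in SD mCherry and 132, 155 and 139 CPM in HFD mCherry. It was at 140.5, 152 and 109 CPM in HFD Tert and 148, 107 and 154 CPM in HFD TertCi. The lowest and the highest library were both SD mCherry, so the groups overlapped, and the log2 fold changes were 0.14 ± 0.28, -0.09 ± 0.28 and -0.05 ± 0.28 for the diet, Tert and TertCi. The difference between the paralogues in their diet fold change was not tested. Atp6v1h, a regulatory subunit of the catalytic sector whose exons overlap those of Rgs20, was at 39.9, 57.3 and 79.7 CPM in SD mCherry, 53.8, 81.8 and 63.1 CPM in HFD mCherry, 68.9, 101 and 125 CPM in HFD Tert and 81.7, 135 and 78.5 CPM in HFD TertCi. It was the other gene above 0 in both knock-in comparisons, at 0.57 ± 0.33 and 0.57 ± 0.33, with HFD mCherry 17 inside the range of both knock-in groups.

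Atp6ap1, an accessory subunit, had the highest level per kilobase of the class (mean 96.1 CPM per kb). It was at 196, 244 and 269 CPM in SD mCherry, 273, 358 and 338 CPM in HFD mCherry, 295, 276 and 331 CPM in HFD Tert and 251, 374 and 287 CPM in HFD TertCi. HFD mCherry was above SD mCherry and overlapped both knock-in groups, with a diet log2 fold change of 0.45 ± 0.21. Tcirg1, the a3 subunit known from osteoclasts, was at 52.1, 63.5 and 43.9 CPM in SD mCherry, 102, 301 and 285 CPM in HFD mCherry, 74.6, 65.2 and 242 CPM in HFD Tert and 76.7, 245 and 96 CPM in HFD TertCi, with HFD Tert 27 and HFD TertCi 31 above HFD mCherry 15. The remaining 4, Atp6v0a1, Tcirg1, Atp6v1a and Atp6v1b2, had diet log2 fold changes of 0.94 (Atp6v1b2) to 2.11 (Tcirg1).

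**Figure D4:**
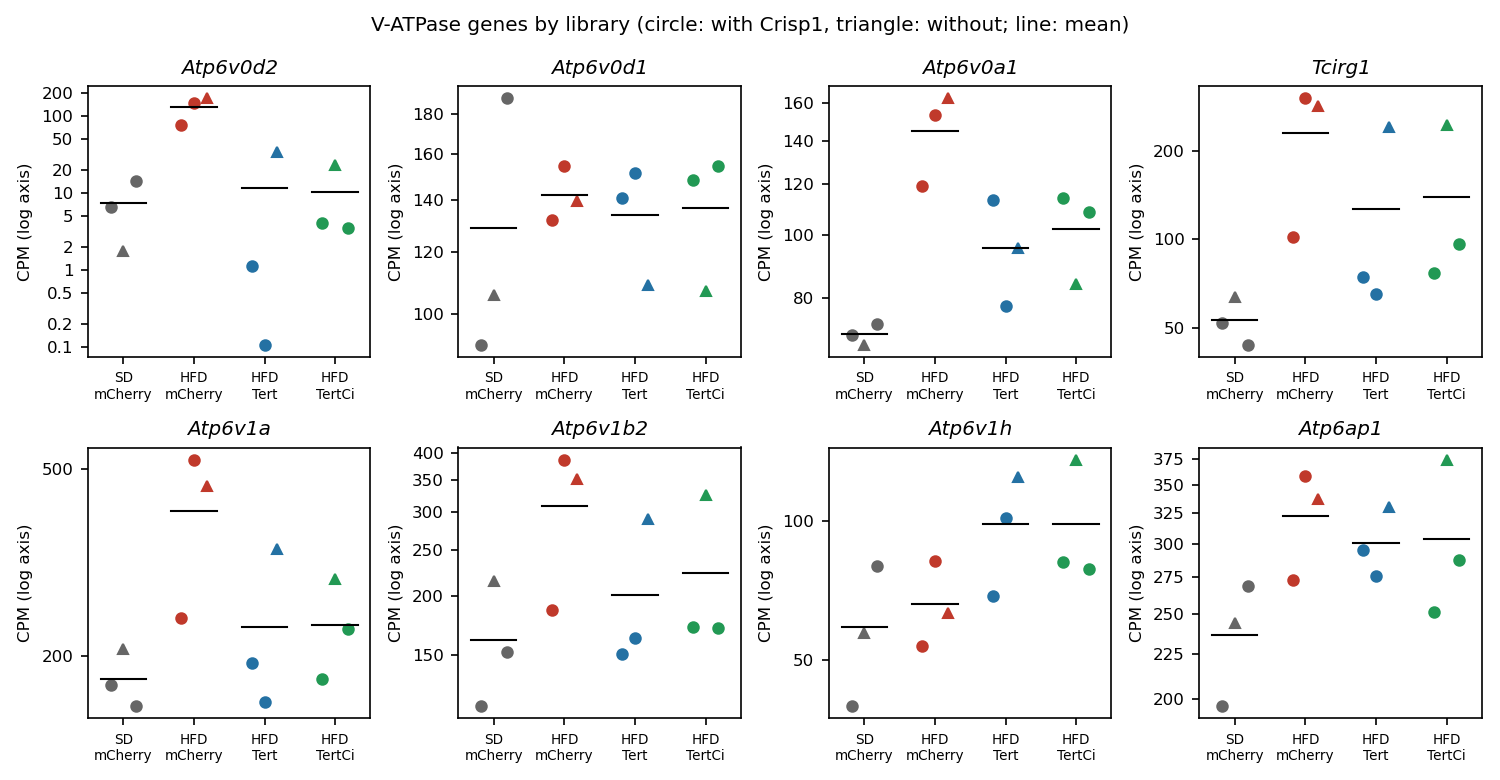
Level of each of the 8 V-ATPase genes (CPM, log axes of different range) in the 12 libraries by group; lines are group means, triangles the 4 libraries with Crisp1 under 10 CPM. Atp6v0d2 spans more than 3 powers of 10, with the 3 HFD mCherry libraries above the other 9, whereas Atp6v0d1 stays between 91.4 and 189 CPM with the groups mixed.

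The 3 transcription factors were low: Tfeb and Mitf had the lowest levels per kilobase of the 42 (means of 3.36 and 3.79 CPM per kb), and Tfe3 was at 7.89 CPM per kb. Tfeb was at 13.7, 16.8 and 20.1 CPM in SD mCherry, 17.7, 22.8 and 22.8 CPM in HFD mCherry, 17.9, 16.5 and 19.2 CPM in HFD Tert and 17.5, 24.2 and 19.8 CPM in HFD TertCi. Tfe3 was at 59.2, 101 and 52.1 CPM in SD mCherry, 76.4, 76.6 and 79.1 CPM in HFD mCherry, 65.2, 66.8 and 81 CPM in HFD Tert and 65.8, 90.4 and 64.2 CPM in HFD TertCi. Both overlapped between all pairs of groups, with diet log2 fold changes of 0.32 ± 0.22 and 0.13 ± 0.25, of which that of Tfe3 turned with scaling by library size only. Mitf was at 12.4, 17.4 and 11.4 CPM in SD mCherry, 20.5, 53.7 and 67.5 CPM in HFD mCherry, 11.2, 10.6 and 30.8 CPM in HFD Tert and 10.6, 22.1 and 13.7 CPM in HFD TertCi. All 3 HFD mCherry libraries were above SD mCherry, its diet log2 fold change was 1.78 ± 0.53, and DESeq2 called it (adjusted p = 0.0171). These factors are known to be controlled largely by their place in the cell, which RNA levels do not show.

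With Tert or TertCi under the p21 promoter, most of the genes were lower than in HFD mCherry. In HFD Tert, 40 of the 42 were lower and 2, Mcoln1 and Atp6v1h, higher, with a median log2 fold change of -0.82 against -0.05 over all tested genes, of which 53.8% were lower. The same 2 genes were the only ones higher in HFD TertCi, with a median of -0.71 against -0.04 over all tested genes, of which 52.6% were lower. Scaled by library size only, 38 of the 42 were lower for Tert and 36 for TertCi. Both comparisons, like that of the diets, rest on the same 3 HFD mCherry libraries, so their values stand side by side and are not independent of each other. By edgeR 0 of the 42 were called in either; of all tested genes 0% were called for Tert and 0.012% for TertCi. At an unadjusted p under 0.05, 23 of the 42 were lower for Tert (9.75% of all tested genes) and 22 for TertCi (8.92%). DESeq2 called 13 lower for Tert (2.48%) and 12 for TertCi (2.02%).

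The libraries of HFD Tert were all below those of HFD mCherry for 14 of the 42 genes (11.1% of all tested genes), and those of HFD TertCi for 17 (12%). Calls again depended on the libraries: without HFD mCherry replicate 15, edgeR called 2 of the 42 lower for Tert, Ctsd and Gusb (0.287% of all tested genes), and 11 for TertCi (1.08%). With the epididymis and epithelium covariate it called 19 lower for Tert (4.54%) and 12 for TertCi (2.75%). With the presence of Crisp1 as a term it called 0 for either, with medians of -0.88 and -0.75. In the libraries without Crisp1, 35 of the 42 genes were lower in the HFD Tert library than in the HFD mCherry library (median log2 ratio -0.47) and 31 in the HFD TertCi library (median -0.60). The shares of all tested genes were not counted for these pairs. HFD Tert 27 and HFD TertCi 31, those 2 knock-in libraries, also had the highest sums over macrophage markers in their groups. The same held for the adipose progenitor, endothelial and osteoclast markers, while their sums over pericyte and smooth muscle markers were the lowest.

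**Figure D5:**
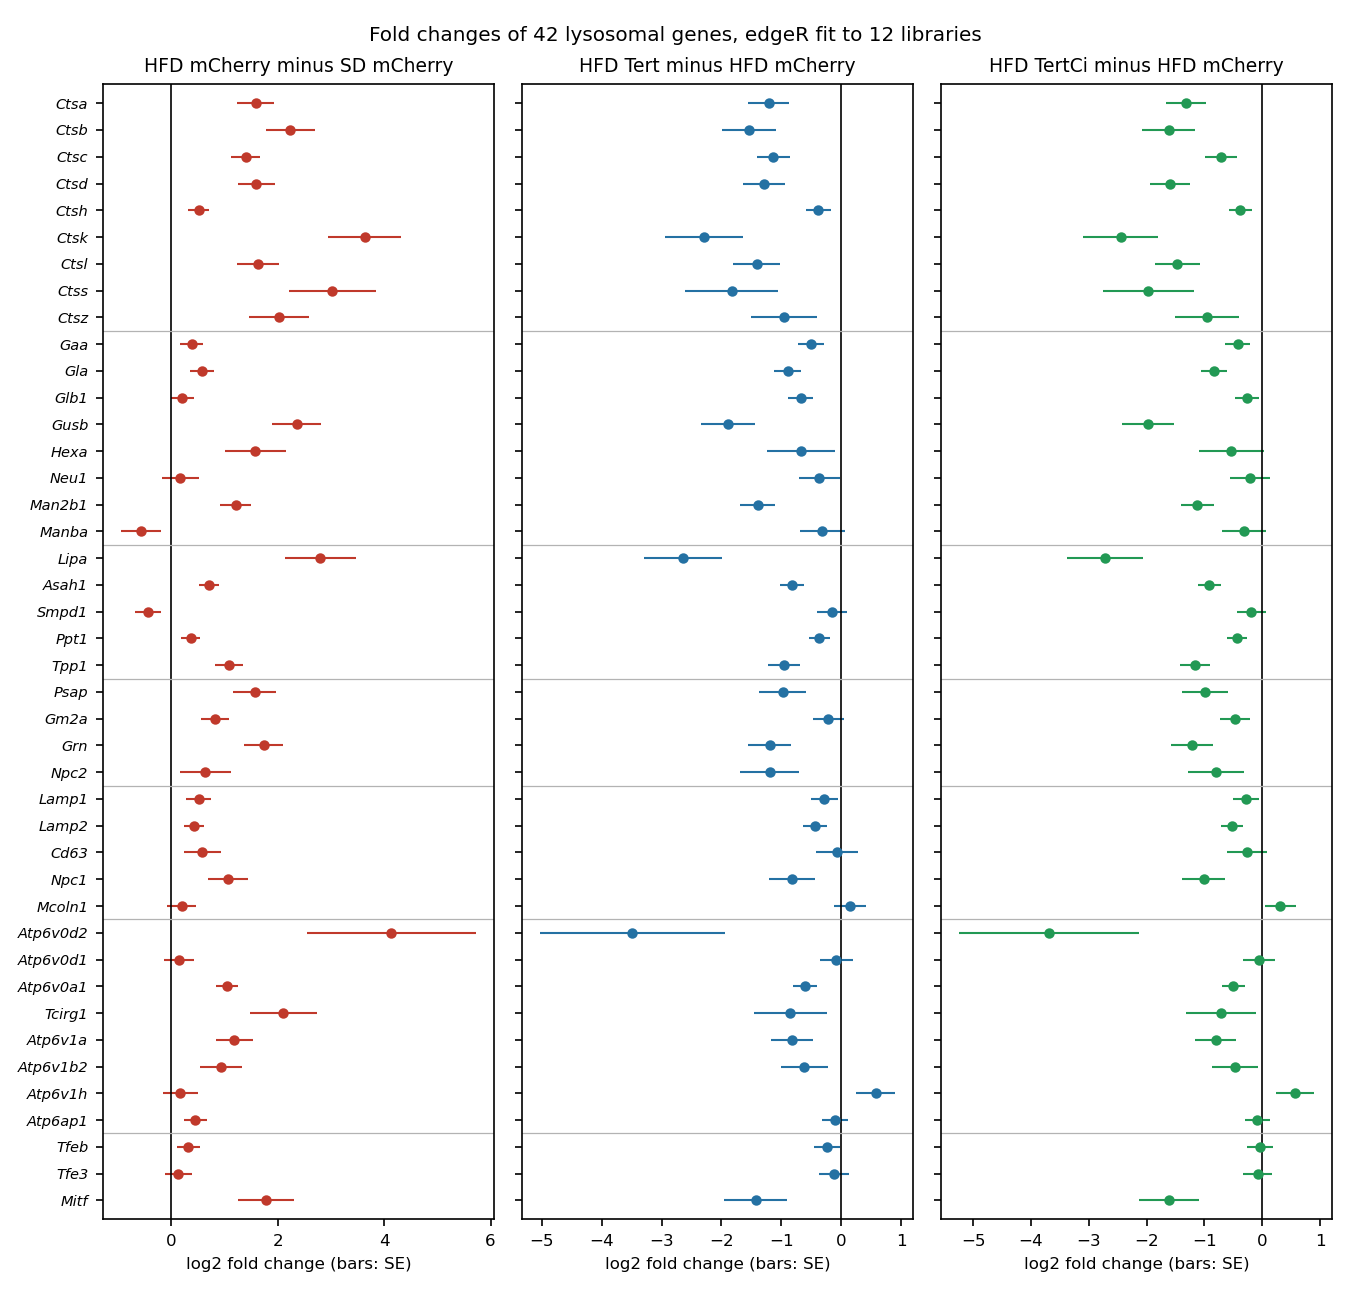
Log2 fold change (points) with its standard error (bars) of the 42 genes, in class order, for the diet, Tert and TertCi comparisons of the 12-library fit; each panel has its own axis. Most points lie right of 0 for the diet and left of 0 for both knock-ins, and 0 of them passed the edgeR test at an adjusted p under 0.05.

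HFD Tert and HFD TertCi differ in the catalytic activity of the knocked-in protein. Of the 42 genes, 21 were higher and 21 lower in HFD Tert than in HFD TertCi (51.7% of all tested genes were lower). The log2 differences ran from -0.43 (Ctsc) to 0.30 (Ctsd), with a median of 0.0016. This split moved in both directions with the setting. Of the 42, 33 were lower with the epididymis and epithelium covariate, 29 by limma-voom and 33 without HFD Tert replicate 27. Only 9 were lower without HFD TertCi replicate 31, 12 without HFD Tert replicate 26 and 13 without HFD Tert replicate 25. Neither edgeR nor DESeq2 called a gene of the 42, and of all tested genes edgeR called 0% and DESeq2 0.0146% higher and 0.0195% lower. At an unadjusted p under 0.05 there were 0 of the 42, where 0.766% of all tested genes were higher and 0.592% lower. The libraries did not overlap for 1 of the 42 above, Ctsd, and 1 below, Glb1, which was near the shares of all tested genes (2.55% above, 2.58% below). Ctsd was higher in all 3 HFD Tert libraries, at a log2 difference of 0.30 ± 0.34. Glb1, the beta-galactosidase whose activity is stained to mark senescent cells, was at 31.7, 32 and 29 CPM in HFD Tert and 48.3, 32.9 and 42.9 CPM in HFD TertCi. The log2 difference was -0.42 ± 0.21 (edgeR unadjusted p = 0.073). Glb1 was lower in all 3 HFD Tert libraries, by a narrow gap to HFD TertCi 31. In HFD mCherry it was at 54.8, 49.7 and 44 CPM and in SD mCherry at 50.3, 32.2 and 46.3 CPM; its exons overlap those of Tmppe. The standard errors of the 42 differences ran from 0.17 to 1.42 on the log2 scale (median 0.34), which limits the size of difference that 3 libraries a group could resolve.

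Further lysosomal genes, outside the 42, were read from the same fit. For the diet, DESeq2 called 6.17% of all genes it tested higher and 3.51% lower. Of 26 other enzymes, 20 were higher in HFD mCherry than in SD mCherry and DESeq2 called 8, all higher (median log2 fold change 0.56). Acp5, tartrate-resistant acid phosphatase, led them at 11.9, 12.3 and 16.4 CPM in SD mCherry and 66.8, 228 and 197 CPM in HFD mCherry (3.60 ± 0.67), and Hyal1, a hyaluronidase, was the lowest (-1.81 ± 0.74). Of 20 other membrane proteins, 14 were higher and DESeq2 called 8, all higher (median 0.54), with Cd68, which also marks macrophages, at 3.52 ± 0.78. Side by side, the medians of these 26 enzymes and 20 membrane proteins were -0.71 and -0.57 for Tert, and -0.78 and -0.53 for TertCi. The 9 sorting receptors and phosphotransferase genes, which route enzymes to the lysosome, had a median of 0.58, and 2 were called, both higher. The 23 genes of TFEB regulation and autophagy had a median of 0.18, with 2 called higher, Fnip2 and Rragc, and 1 lower, Ppargc1a; the median was -0.03 when scaled by library size only.

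Other V-ATPase subunits were divided between the directions. Of the 18, 16 were tested, 7 were higher and 9 lower in HFD mCherry, with a median log2 fold change of -0.08, and DESeq2 called 1, Atp6v0a4, lower (-2.17 ± 0.77). Atp6v0c, which forms the proton-carrying ring, was at 0.62 ± 0.21. Atp6v1g3, known from kidney and epididymis, was at 7.89, 0 and 0.405 CPM in SD mCherry and 18.9, 0 and 0 CPM in HFD mCherry, and the 4 libraries without Crisp1 were all at 0. The 7 tested cathepsin inhibitors of 11 were all higher in HFD mCherry (median 0.74) with 0 called by DESeq2; Cst3, cystatin C, was at 0.66 ± 0.28.

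Markers of several cell types differed between the groups together with the lysosomal genes. In HFD mCherry, 12 of 12 macrophage markers were higher than in SD mCherry, with a median log2 fold change of 2.19. DESeq2 called 10 of them higher (6.17% of all genes it tested). All 12 were lower than HFD mCherry in HFD Tert (median -1.77) and in HFD TertCi (median -1.81). Of the 10 markers of lipid-associated macrophages, 9 were higher, with a median of 3.24; Trem2 was at 10.3, 13.6 and 22.5 CPM in SD mCherry, 63.1, 253 and 226 CPM in HFD mCherry, 13.9, 6.35 and 70.5 CPM in HFD Tert and 10.5, 53.5 and 11.8 CPM in HFD TertCi. Adipose progenitor markers were higher in 10 of 12, with sums of 5226, 6009 and 3951 CPM in SD mCherry and 8685, 24276 and 24724 CPM in HFD mCherry. Their sums were 6502, 7913 and 13936 CPM in HFD Tert and 5674, 12062 and 8503 CPM in HFD TertCi. Resident macrophage markers summed to 123 to 517 CPM, dendritic cell markers to 26.01 to 99.6 CPM and mast cell markers to 24.6 to 261 CPM over the 12 libraries, each with its highest value in HFD mCherry. T cell, B cell and neutrophil markers summed to 2.80 to 27.3 CPM. Osteoclasts also express Ctsk, Atp6v0d2 and Acp5. The 8 osteoclast markers, Acp5 among them, summed to 129, 156 and 113 CPM in SD mCherry, 177, 496 and 517 CPM in HFD mCherry, 187, 186 and 292 CPM in HFD Tert and 140.1, 306 and 207 CPM in HFD TertCi. Of the 6 tested, 5 were higher and 1 lower in HFD mCherry than in SD mCherry (median log2 fold change 1.77), and DESeq2 called 3 higher and 1 lower; Calcr and Oscar were at 0 to 0.292 CPM in the 12 libraries. None of the macrophage markers is among the 42 genes, and the part of these cell types in the results was not tested.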

How the data were processed

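RNA was column purified, selected with poly-T beads and reverse transcribed from random hexamers, per the labels' protocols. Raw read counts were deposited by the authors, as a separate table for every library, per the file headers. Subread, SAMtools, featureCounts 1.6.4 and the build mm10 are named in the submitters' processing notes; the gene annotation and whether strand was used are not given in the sources used here. The exons of 9 of the 42 genes overlap other counted genes (Ctsa, Ctsb, Ctsz, Glb1, Hexa, Ppt1, Grn, Lamp1 and Atp6v1h). Without known strand, reads in the shared bases cannot be told from those of the neighbours. The shared bases were a part of the exons, such as 10 for Ctsz, 68 for Grn and 774 for Ctsb. Glb1 and Tmppe lie on the same strand, so there strand would not separate the reads.

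Counts were tested with edgeR 4.0.16 in R 4.3.3: filterByExpr (16713 of 24422 features), TMM factors (0.854 to 1.15) and 1 robust quasi-likelihood fit of 4 groups with no covariate, 2-sided, with Benjamini-Hochberg adjustment within each of 4 comparisons and calls at an adjusted p under 0.05. The common coefficient of variation was 0.536. CPM is relative to the TMM-scaled total over tested genes. The standard error (SE) of a log2 fold change was back-calculated, as its absolute value divided by the square root of the test's F statistic. Level per kb divides CPM by the union of a gene's exons in GENCODE M21 (GRCm38), which also gave the coordinates and counts retained introns. After the main fit, the same model was also run on counts simulated from its means and spread, with results not reported here.

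The 42 genes and all lists were chosen with earlier results of these data known, so lists are described by counts and medians and not tested. Values are given for each library for genes among the 4 highest or 4 lowest fold changes in the diet, Tert or TertCi comparison, or highest per kb in their class; up to 3 highest and 3 lowest genes of each other list, the targeted genes and the marker genes may be named. Ctsb, Man2b1, Glb1, Grn, Tcirg1, Mitf and the genes given by fold change alone fall outside this rule and were chosen after their values were seen. Alternatives were other scaling, no filter, DESeq2 1.42.0, limma-voom (limma 3.58.1), 2-group fits, an epithelial score (mean log2 CPM of the epididymis and epithelium markers) as covariate and leaving out each library. The Crisp1 term, the 8 libraries with Crisp1 at 10 CPM or more and the 4 without were added after seeing the data. Marker lists of 17 cell types described the libraries. None of the 12 pairs of libraries within a group held counts that agreed within sampling noise. The closest pair was HFD mCherry 17 and 20, with a chi-square per degree of freedom of 20.03, against 43.67 to 336.5 for the others. Pairs across groups were not compared.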

Additional observations from a re-analysis of the deposited data

How the results depend on the processing

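The edgeR counts of calls changed with the tool, the covariate and the libraries; the causes were not tested. For the diet, the 8 genes called of all genes became 2 with RLE factors, 0 with limma-voom, 0 with only the 2 groups, 0 on the 8 libraries with Crisp1, 1988 with DESeq2, 1447 with the epithelial score and 1508 with the Crisp1 term, and the 0 of the 42 became 20, 21 and 22 under those last 3. For Tert, DESeq2 called 805 genes and 13 of the 42, and the score 1052 and 19. For TertCi, the 2 genes became 1 by library size only, 0 on the 8 libraries with Crisp1, 0 with only the 2 groups, 599 with DESeq2 and 578 with the score, the latter pair with 12 of the 42 each. Between HFD Tert and HFD TertCi, DESeq2 called 7 genes. Leaving out 1 library gave 0 to 2082 genes and 0 to 21 of the 42 for the diet, 0 to 51 and 0 to 2 for Tert, 0 to 198 and 0 to 11 for TertCi, and 0 to 0 genes and 0 to 0 of the 42 between Tert and TertCi.

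The median log2 fold change of the 42 kept its sign under every alternative for the diet, Tert and TertCi. It also stayed within 0.314 of its main value. That limit is the pooled SD, within groups, of each library's median level of the 42, and not an error of the fold change. Leaving out 1 library gave 0.85 to 1.18 for the diet, -0.98 to -0.61 for Tert and -0.89 to -0.50 for TertCi. Between Tert and TertCi it gave -0.25 to 0.16. Scaling by library size only moved the median of all genes by -0.20 for the diet and 0.10 for TertCi, with 35 of the 42 then higher for the diet, 38 lower for Tert and 36 lower for TertCi.

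Among the 42, signs turned for genes near 0. By library size only they were Neu1 (diet -0.0247), Tfe3 (diet -0.079, TertCi 0.017), Atp6v0d1 (diet -0.049, Tert 0.014, TertCi 0.068), Cd63 (Tert 0.013), Mcoln1 (diet -0.0045), Atp6v1h (diet -0.0381), Tfeb (TertCi 0.071) and Atp6ap1 (TertCi 0.020). With only the 2 groups they were, for TertCi, Tfe3 (0.0028), Atp6v0d1 (0.026) and Tfeb (0.042). On the 8 libraries with Crisp1 they were Atp6v0d1 (Tert 0.031, TertCi 0.079) and Mcoln1 (Tert -0.20, TertCi -0.052). Leaving out 1 library, the ranges that crossed 0 were Atp6ap1 for TertCi (-0.26 to 0.034), Atp6v0d1 for the diet (-0.052 to 0.52), Tert (-0.19 to 0.042) and TertCi (-0.15 to 0.094), Atp6v1h for the diet (-0.048 to 0.45), Cd63 for Tert (-0.41 to 0.11), Mcoln1 for Tert (-0.15 to 0.29), Neu1 for the diet (-0.028 to 0.32), Smpd1 for Tert (-0.31 to 0.038) and TertCi (-0.33 to 0.0039), Tfe3 for the diet (-0.046 to 0.48) and TertCi (-0.25 to 0.013), and Tfeb for TertCi (-0.17 to 0.064). No paired analysis was possible because no replicate number occurs in more than 1 group.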

Other observations

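The 7 pericyte and smooth muscle markers summed to 6592, 2693 and 18634 CPM in SD mCherry, 2091, 2774 and 1516 CPM in HFD mCherry, 13732, 18902 and 2675 CPM in HFD Tert and 11975, 3857 and 10484 CPM in HFD TertCi, with the 4 libraries lacking Crisp1 at 1516 to 3857 CPM. The 9 endothelial markers summed to 1092, 1271 and 912 CPM in SD mCherry, 1728, 3144 and 2875 CPM in HFD mCherry, 2195, 3271 and 5242 CPM in HFD Tert and 2448, 5481 and 3287 CPM in HFD TertCi. On the high-fat diet 8 of the 9 were higher (median log2 fold change 1.03), and all 9 had Tert and TertCi log2 fold changes above 0, with 0 called by edgeR in the 3 comparisons. Among adipocyte markers, Cfd, the complement factor adipsin, was at 19.2, 15.8 and 10.1 CPM in SD mCherry, 0.387, 0.421 and 0.418 CPM in HFD mCherry, 5.72, 13.2 and 4 CPM in HFD Tert and 1.89, 2.77 and 1.9 CPM in HFD TertCi, with all 3 HFD mCherry libraries below the other 9. Mesothelial markers summed to 281 to 323 CPM in HFD mCherry and to 438 to 1625 CPM in the other 9 libraries. Erythrocyte markers (1618 to 21270 CPM) and skeletal muscle markers (1.29 to 811 CPM) varied within groups.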
